A study of Mus musculus with 22 samples.

Results

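Forced expression of Msi1 in cultured mouse neural stem cells was followed at the level of mRNA by RNA-Seq and at the level of translation by Ribo-Seq. The 4 libraries compared were MSI1 cells without doxycycline (NoDox) and with it (Dox), each profiled by both assays, and they were chosen by their labels out of the 22 libraries of the series. A further 4 libraries, of KH2 cells with and without Dox, gave the level of change to be met in cells that carry no added Msi gene. All 8 libraries came from cortical neural stem cells of E12.5 embryos, and Dox, where given, was at 1 µg/ml for 72 h. MSI1 cells hold a Msi1 cDNA behind a tetracycline-responsive promoter at the Col1a1 locus, and MSI1 and KH2 cells both express the reverse tetracycline transactivator from the Rosa26 locus. Genes were joined between the assays by Ensembl ID, which left 20396 genes in both, of 22623 in the RNA-Seq files and 23081 in the Ribo-Seq table.

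Musashi proteins (MSI1 and MSI2) are RNA-binding proteins of neural stem and progenitor cells that recognise short UAG-containing motifs, mostly in the 3′ UTRs of mRNAs, and are best known for repressing the translation of their targets. In Ribo-Seq, RNA protected by ribosomes is digested to short footprints and sequenced, so that the density of footprints on a coding sequence reflects both how much of the mRNA is present and how densely it is read. The translational efficiency (TE) of a gene is its footprint level divided by its mRNA level. Both levels are given as RPKM, that is, reads scaled to the length of the counted sequence and to the library size that the authors used.

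Each condition had 1 library, so no spread between replicates could be measured and no p-values are given. A gene was called changed between 2 libraries where its level differed by at least 1.5-fold and the 95% interval of the ratio from read counts excluded no change. For mRNA and footprints the fold was taken after adding 0.5 RPKM, over genes with a mean of at least 1 RPKM. For TE nothing was added, and more than 5 reads were required in all 4 libraries. These intervals cover counting error only, and a call states that 2 libraries differed, not that the conditions did. Values of single genes are log2 ratios of RPKM with nothing added, unless a library held no read.

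The libraries differed in depth, and the treated MSI1 library was the shallowest of both assays. The RNA-Seq libraries held between 7889966 reads (MSI1 Dox) and 22248145 reads (KH2 Dox) on genes, and the Ribo-Seq libraries between 657288 (MSI1 Dox) and 3471152 (KH2 NoDox). In Ribo-Seq the 10 most abundant genes took between 12.4% (MSI1 Dox) and 77.6% (KH2 NoDox) of the reads, against 7.74% to 8.93% in RNA-Seq, and a different gene led each Ribo-Seq library. Each Ribo-Seq library also held between 37 and 52 genes with at least 1000 footprints and no more than 10 mRNA reads over the 4 RNA-Seq libraries. The part that these features had in the results was not tested. The cells carried the marker genes of neural stem cells, and all 12 of these that were measured had at least 1 RPKM in every RNA-Seq library. None of the measured microglial markers (10) or endothelial and mural markers (10) reached 1 RPKM in any of them. Of 11 fibroblast and meningeal markers, however, 5 reached 1 RPKM in each RNA-Seq library, and the list summed to between 29.2 (MSI1 Dox) and 36.1 RPKM (KH2 Dox).

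A binding site of MSI1 from an earlier study is shown first, a UAG flanked by a purine and a U. In DNA letters it is GTAGT or ATAGT, which was searched on the sense strand of each gene's longest annotated 3′ UTR. The study's own binding assay gave a UAG preferentially flanked by Us. Other UAGs were not counted here, among them UAGs of the Jag1 3′ UTR that the study mutated in its binding tests. A 3′ UTR without a match can therefore still hold sites that Musashi proteins bind. GTAGT or ATAGT stood in 59.4% of the 19381 3′ UTRs of at least 50 bases. The 3′ UTR of Jag1, which encodes the Notch ligand Jagged1, held 7 matches in 1568 bases, or 4.46 per kilobase, against a median of 0.818 over all 3′ UTRs. That of Msi2, the paralog of Msi1, held 8 in 5310 bases (1.51 per kilobase). The 3′ UTR of Kirrel3, which led the falls of mRNA, held 1 in 1436 bases (0.696 per kilobase). That of Itga2, whose mRNA rose, gave no match. The first 3 matches after the stop codon of Jag1 (chromosome 2, minus strand) and the first of Msi2 (chromosome 11, minus strand) are printed with 8 bases on either side, from the Ensembl annotation of mm9 (NCBIM37), with the motif in capitals. They lie at chr2:136908697-136908717, chr2:136908596-136908616, chr2:136908412-136908432 and chr11:88157855-88157875.
Jag1 match 1: cggggcttGTAGTttctttaa
Jag1 match 2: tggcactgGTAGTttctgtgg
Jag1 match 3: ttaggatcATAGTtttattta
Msi2 match 1: cacatttgGTAGTgatttttg

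Between genes with a dense motif and genes without one, the medians differed by a small step in all 3 measures. In MSI1 cells the median TE change was 0.01 on the log2 scale over 2312 genes with no match and 0.05 over 1505 genes in the densest of 3 groups with a match, and in KH2 cells it was 0.16 and 0.14. The median mRNA change in MSI1 cells was -0.04 without a match (3271 genes) and 0.04 at high density (1975 genes), and in KH2 cells -0.07 and -0.02. The median footprint change was -0.06 and 0.05 in MSI1 cells and 0.09 and 0.10 in KH2 cells. The steps of mRNA and footprints in MSI1 cells ran upwards with density, and 3′ UTRs without a match were also shorter, with a median of 496 bases against 1285 among the genes with mRNA values. The share of genes with lower footprints in MSI1 cells went from 6.84% without a match to 3.46% at high density, against 3.32% and 2.83% in KH2 cells. The part of length was not tested.

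Msi1 itself was raised at every level by Dox in MSI1 cells. Its gene lies on chromosome 5 of mm9 (chr5:115879608-115905707, plus strand). Its mRNA level was 20.4 RPKM in KH2 NoDox, 19.8 in KH2 Dox, 19.7 in MSI1 NoDox and 108 in MSI1 Dox, and its footprint level was 6.23, 4.44, 6.58 and 54.3 RPKM in the same order. The treated MSI1 library stood alone, and the other 3 lay close together in both assays. The rise was 5.48-fold in mRNA (log2 2.45, interval 2.36 to 2.54) and 8.25-fold in footprints (log2 3.04, 2.77 to 3.32), from 148 to 364 footprint reads. The TE of Msi1 therefore rose by 1.51-fold, with an interval of 0.30 to 0.88 on the log2 scale, and by 1.03 more than in KH2 cells (0.37 to 1.70). With the median TE change of all genes set to 0, that TE rise was 0.55, just under the 1.5-fold limit. In the E13.5 libraries of MSI1 cells the mRNA of Msi1 rose by 2.04 on the log2 scale.

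Msi2 moved the other way in mRNA. Its level was 29.9, 31.5 and 31.6 RPKM in KH2 NoDox, KH2 Dox and MSI1 NoDox, and 19.8 in MSI1 Dox, a fall of 1.59-fold (log2 -0.67, -0.96 to -0.38). The treated MSI1 library was nevertheless not called lower than every other library. The change in KH2 cells was 0.08 and that at E13.5 was -1.13. The E13.5 value came from other libraries of MSI1 cells with the same treatment and has no treated KH2 control. Footprints on Msi2 were 21.6, 16.6, 12.9 and 16.6 RPKM and did not follow, so that TE was called higher by 1.04 (0.44 to 1.64). The mRNA value of Msi2 was counted by the authors over only 112 bases, against 529 bases for Msi1.

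The mRNA of MSI1 cells changed in more genes than that of KH2 cells. Of 10180 genes with enough mRNA, 156 were higher (1.53%) and 147 lower (1.44%) in the treated MSI1 library than in the untreated one. In KH2 cells 32 (0.315%) and 35 (0.344%) of 10165 were called. Over the 9952 genes measured in all 4 libraries, 111 (1.12%) set the treated MSI1 library apart from each of the other 3, 51 of them higher and 60 lower. The same was true of 7 genes for untreated MSI1 cells (0.0703%), 6 for treated KH2 cells (0.0603%) and 9 for untreated KH2 cells (0.0904%). This comparison with all 3 other libraries was chosen after the data had been seen.

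**Figure D1:**
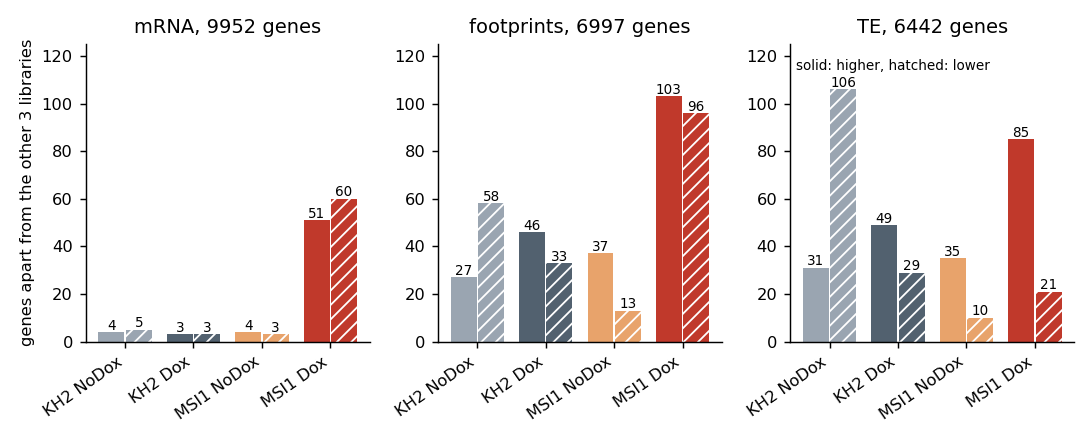
Number of genes (vertical axis) that set 1 library apart from each of the other 3 of its assay by at least 1.5-fold with a counting interval that excludes no change, for mRNA, footprints and TE, with solid bars for genes higher and hatched bars for genes lower in that library. In mRNA the treated MSI1 library has 51 and 60 such genes and each other library at most 5 in a direction, while in TE the untreated KH2 library has the most genes of the 4, 106 of them lower.

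Beside Msi1, the largest rises of mRNA were in genes of differing function. Itga2, the integrin subunit α2 that binds collagen and laminin, had 0.595 RPKM in KH2 NoDox, 0.671 in KH2 Dox, 0.813 in MSI1 NoDox and 3.31 in MSI1 Dox, a 4.07-fold rise within MSI1 cells (log2 2.03, 1.80 to 2.25). Its footprints followed, from 31 to 74 reads or 8.01-fold in RPKM, and the gene's mRNA change in KH2 cells was 0.17. At E13.5 the mRNA of Itga2 changed by only 0.21. Prelp, a leucine-rich proteoglycan of basement membranes, rose by 1.79 and changed by 1.88 at E13.5. Atf5, a stress-induced transcription factor, had 5.89, 7.46, 6.07 and 17.5 RPKM in the same order of libraries and rose by 1.53 (1.37 to 1.68), and its footprints rose by 1.78. The treated MSI1 library was the highest of the 4 by a wide margin for both Atf5 and Itga2.

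Car2, a cytosolic carbonic anhydrase, had 19.4, 20.9, 12.9 and 34.3 RPKM. It rose by 1.41 in mRNA, by 2.06 in footprints and by 0.84 in mRNA at E13.5. Here the untreated MSI1 library was the lowest and the treated one the highest, so the distance from KH2 cells was smaller than the change. The RNA-binding protein gene Rbm24 rose by 1.84 from 44 to 61 reads, and Tmem159 and Gm447 rose by 1.41 and 1.37 on no more than 43 reads a library.

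Among markers of astrocytes, 2 of 11 measured rose in mRNA, where 1.53% of all genes did, and 0 fell. Apoe, the lipid carrier that astrocytes and radial glia secrete, had 76.1, 81.5, 114 and 223 RPKM and rose by 0.97 (0.93 to 1.00), with 1.48 in footprints and 0.78 at E13.5. Its footprints also rose in KH2 cells, by 0.82. S100b, a calcium-binding protein of astrocytes, rose by 1.07 (0.59 to 1.56) and by 0.68 at E13.5. The summed mRNA of the 12 markers was 694 RPKM in treated and 660 in untreated MSI1 cells, and 603 to 673 in KH2 cells, so the list as a whole moved little in mRNA. In footprints the sum, of which Apoe was the largest part in treated MSI1 cells, was 235, 284, 308 and 534 RPKM in KH2 NoDox, KH2 Dox, MSI1 NoDox and MSI1 Dox. While Apoe rose in footprints, 2 of the 12 markers measured there fell, where 5.2% of all genes did. They were Clu, a secreted chaperone (-1.76), and Cd44, a hyaluronan receptor (-1.31). In a bulk sample, more cells of a kind and more RNA per cell cannot be told apart. Of the neural stem cell markers, 0 of 12 were called in mRNA, footprints or TE in MSI1 cells. Over all genes 1.53% rose and 1.44% fell in mRNA, 6.72% and 5.2% in footprints, and 6.5% and 3.32% in TE. A list of 12 without a call lies near these shares.

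The largest falls were led by Kirrel3, an adhesion molecule of the immunoglobulin family in neurons. Its mRNA was at 3.46, 2.89, 3.08 and 0.428 RPKM, a 7.19-fold fall from 93 to 5 reads over 220 counted bases (log2 -2.85, -4.14 to -1.55). Footprints on Kirrel3 did not follow, at 43 reads before and 17 after Dox (0.41, -0.40 to 1.22), and at E13.5 the mRNA changed by -0.42. Hopx, a homeodomain protein of radial glia that binds no DNA, fell by 1.30 on the log2 scale and was at 3.71 RPKM after Dox against 9.12 to 11.8 in the other 3 libraries, with -0.78 at E13.5. The uncharacterised 1500015O10Rik fell by 1.34, and by 1.30 at E13.5. Cxcl14, a chemokine, fell by 1.42, but its change at E13.5 was 0.36. For Rnf112, a ubiquitin ligase of the nervous system, the fall was 1.39 and the E13.5 value 0.20.

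The list of extracellular matrix genes had the largest number of mRNAs called among the lists examined. Immediate early genes, described below, had a larger share called (6 of 18) and a lower median (-0.41). Of 35 collagens, laminins and matrix glycoproteins measured, 8 fell and 0 rose in mRNA, where 1.44% of all genes fell. The median change over the 35 was -0.33, against -0.01 over all genes, and in KH2 cells it was -0.05 with none of 37 called. Fbn1, which encodes the microfibril protein fibrillin, was at 1.64, 1.74, 2.04 and 0.922 RPKM and fell by 1.14 (interval -1.32 to -0.97), and by 0.96 at E13.5. Col5a1, a chain of the fibril-forming collagen V, fell by 1.02 and Col12a1, which decorates collagen fibrils, by 0.99. Tnc, which encodes the neural stem cell niche protein tenascin-C and was picked here after its values were seen, fell by 0.80 and by 1.46 at E13.5. For 6 of the 8 genes the treated MSI1 library was apart from all 3 others, and 6 of the 8 had a negative change at E13.5, with Fn1 (fibronectin) and Fbln2 as the exceptions.

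The same list gave 8 of 31 lower and 1 higher in footprints, where 5.2% and 6.72% of all genes were, with a median of -0.38 and of 0.17 in KH2 cells. With RPKM rescaled to the reads on genes, that median was 0.01 in MSI1 cells, where the median of all genes was 0.44. Perlecan, the heparan sulfate proteoglycan encoded by Hspg2, had 6.19, 7.74, 7.99 and 4.96 RPKM of footprints and fell by 0.69 (-0.88 to -0.50). Col5a2 had 5.60, 5.69, 8.18 and 4.83 RPKM and fell by 0.76. For only 1 of the 8 genes was the treated library apart from all 3 others in footprints, since the untreated MSI1 library was often the highest of the 4. The 1 gene that rose, Col18a1, did so on 12 and 9 reads. In TE 2 of 32 genes of the list were higher, where 6.5% of all genes were, and 0 lower.

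**Figure D2:**
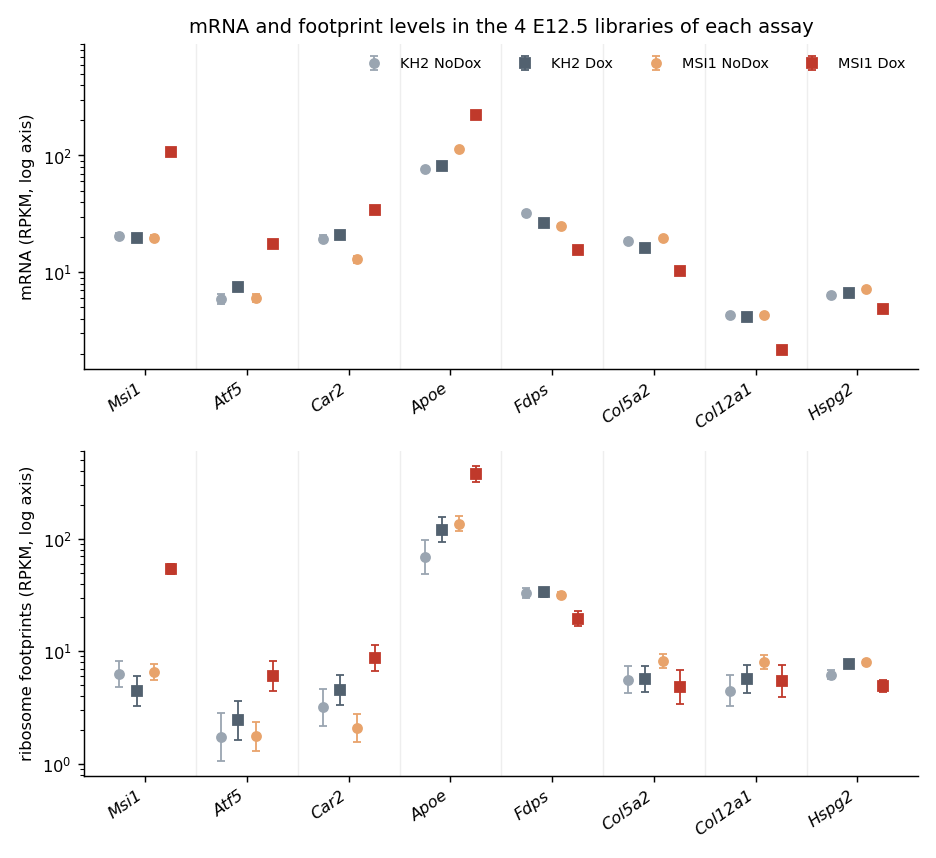
mRNA (upper panel) and footprint (lower panel) RPKM on a log axis in the 4 libraries of each assay, for Msi1, 3 genes that rose and 4 genes that fell in mRNA or footprints, with 95% counting intervals. The treated MSI1 library (red squares) is the highest of the 4 in both panels for Msi1, Atf5, Car2 and Apoe, and the lowest in mRNA for Fdps, Col5a2, Col12a1 and Hspg2.

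Other lists moved in part. Of 18 immediate early genes, which are switched on within minutes of stimulation, 6 fell in mRNA, where 1.44% of all genes did, and 0 rose, with a median of -0.41. The falls were led by Fosb, at 0.705, 0.532, 1.78 and 0.483 RPKM (-1.88, -2.52 to -1.25), followed by Fosl2 (-0.91) and Ier2 (-0.89). In 5 of the 6 the treated library was not apart from the KH2 libraries, Ier2 and Junb also fell in KH2 cells, and only 2 of the 6 had a negative change at E13.5. Of 34 genes of glycolysis and the hypoxia response, 5 fell, where 1.44% of all genes did, and 0 rose. Txnip, which blocks glucose uptake, fell by 1.04 and by 1.34 at E13.5, and its relative Arrdc4 by 0.96 and 1.61. In KH2 cells they were at -0.47 and -0.36, footprints of Txnip fell in KH2 cells (-0.84) as in MSI1 cells (-0.90), and for neither mRNA was the treated MSI1 library apart from the other 3. Car9, a carbonic anhydrase induced by low oxygen, fell by 0.97. Ndrg1, named after its values were seen, fell by 0.95 but was at 0.51 at E13.5. Slc2a3, likewise named afterwards, fell by 0.68 and by 0.60 at E13.5. For Car9, Ndrg1 and Slc2a3 the treated MSI1 library was apart from the other 3.

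Of 32 enzymes and regulators of sterol and fatty acid synthesis, 3 fell (1.44% of all genes did) and 0 rose in mRNA, and in all 3 the treated library was apart from the others. Fdps, which makes the farnesyl diphosphate from which sterols are built, was at 32.0, 26.6, 25.1 and 15.6 RPKM and fell by 0.69 (-0.82 to -0.56), and its footprints fell by 0.70. Scd1, a fatty acid desaturase, also fell by 0.69, from 66.2 to 41.0 RPKM, yet its footprints were at 145 and 124 RPKM and were not called. Elovl6, which lengthens fatty acids, fell by 0.68 in mRNA and by 1.38 in footprints. At E13.5 all 3 had negative changes, of -0.43, -0.24 and -0.21 respectively.

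Of 30 measured genes of amino acid stress under ATF4, 4 rose, where 1.53% of all genes did, and 0 fell in mRNA. They were Nupr1 (2.42, 1.53 to 3.31), Atf5, Mthfd2, a mitochondrial folate enzyme (0.91), and the alanyl-tRNA synthetase gene Aars, named after its value was seen (0.76). The treated MSI1 library was apart from all 3 others only for Atf5, and Nupr1 and Mthfd2 were at 0.93 and 0.46 in KH2 cells. At E13.5 only Atf5 of the 4 had a positive change, of 0.31. The mRNA of Atf4 itself was not called (0.14), but its footprints were 2.68, 3.04, 3.74 and 6.79 RPKM, a rise of 0.86 (0.35 to 1.37), and its TE rose by 0.71 (0.19 to 1.23). The treated MSI1 library was the highest of the 4 in footprints and TE of Atf4. The median of the list was 0.10 in mRNA and -0.01 in footprints.

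No mRNA was called in either direction among 82 splicing factors and hnRNPs, 36 proteasome subunits, 72 chaperones and ER folding enzymes, 73 mitochondrial ribosomal proteins, 75 nuclear subunits of the respiratory chain, 39 genes of mitosis, 26 Notch ligands, receptors and regulators, or 10 Notch targets. Their median changes ran from -0.09 to 0.08. Over all genes 1.53% rose and 1.44% fell in mRNA, so for the shorter lists the absence of calls lies near that share. Among 46 regulators of mRNA stability and translation, of which 36 were measured, Zfp36l2, which binds AU-rich elements, rose by 0.64 and by 1.02 at E13.5, and Msi2 fell. Of 59 cadherins and neural adhesion molecules, 3 fell, where 1.44% of all genes did: Kirrel3, Cntnap4 (-0.90, and -1.58 at E13.5) and Cdh6 (-0.75).

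**Figure D3:**
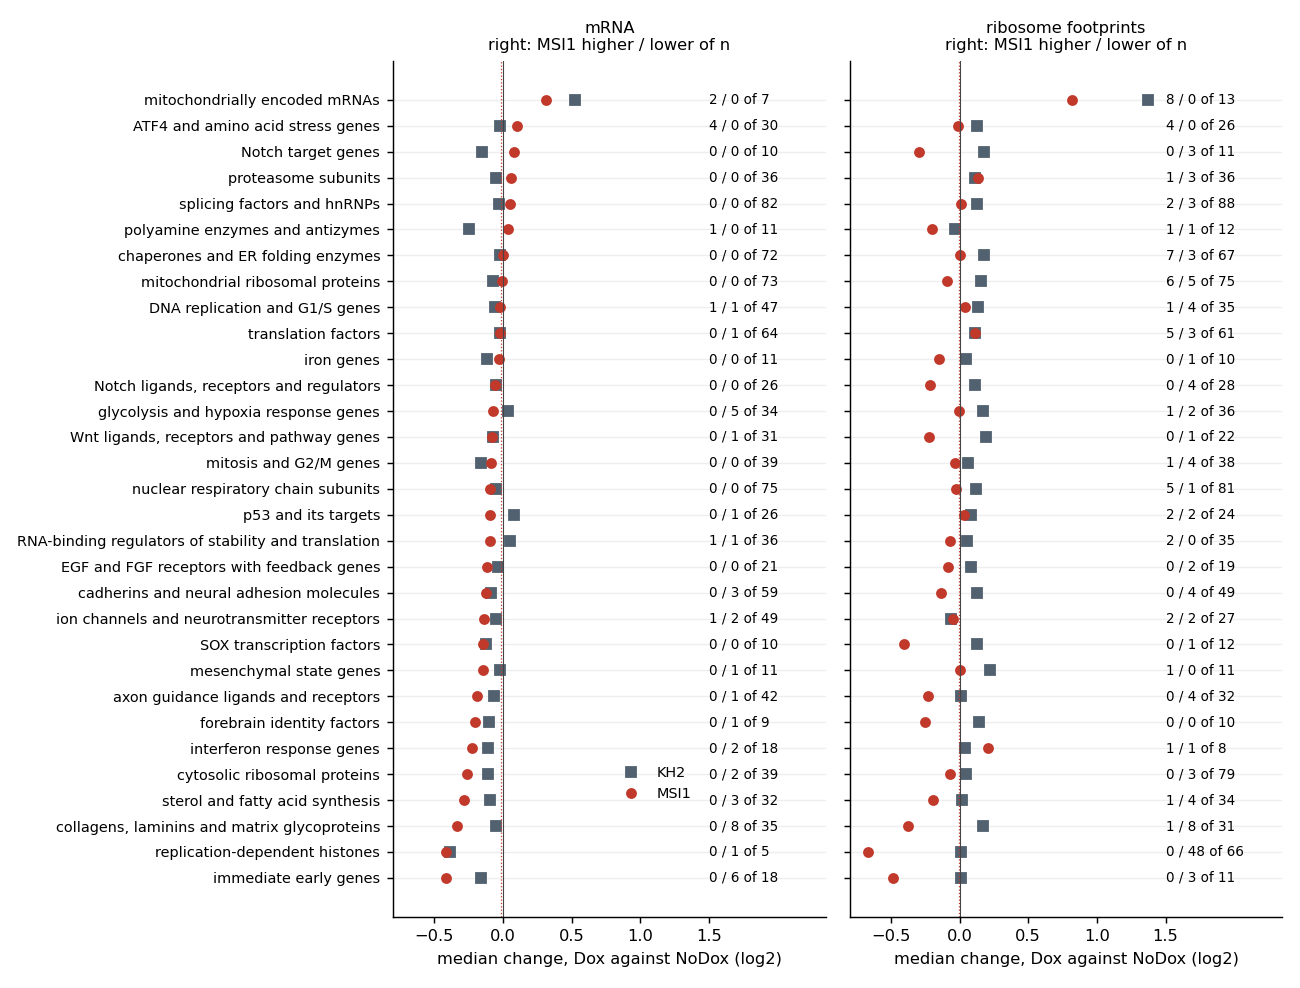
Median log2 change with Dox over the measured members of each gene family, in MSI1 cells (red circles) and KH2 cells (grey squares), for mRNA (left) and footprints (right), with the number of members called higher and lower in MSI1 cells out of those measured at the right and a dotted line at the median of all genes in MSI1 cells. Matrix genes lie at -0.33 in mRNA and -0.38 in footprints in MSI1 cells and at -0.05 and 0.17 in KH2 cells, and replication-dependent histones at -0.66 in MSI1 footprints.

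Footprints followed the mRNA in MSI1 cells. Of 53 genes called higher in mRNA that had at least 20 footprint reads, 46 (86.8%) were also higher in footprints, where 48.6% of the 6354 genes compared were. Of 66 called lower, 56 (84.8%) were lower in footprints, where 51.4% of genes were, with median footprint changes of 0.75 and -0.53. In KH2 cells 5 of 8 were higher, where 61.5% of 5635 genes were, and 4 of 7 were lower, where 38.5% were. Across 3431 genes with at least 100 reads in both assays, Pearson's r of the mRNA and footprint changes was 0.35 in MSI1 cells, and over 2279 such genes it was 0.10 in KH2 cells. Genes are not independent replicates, and the points of each r share their libraries and depths.

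**Figure D4:**
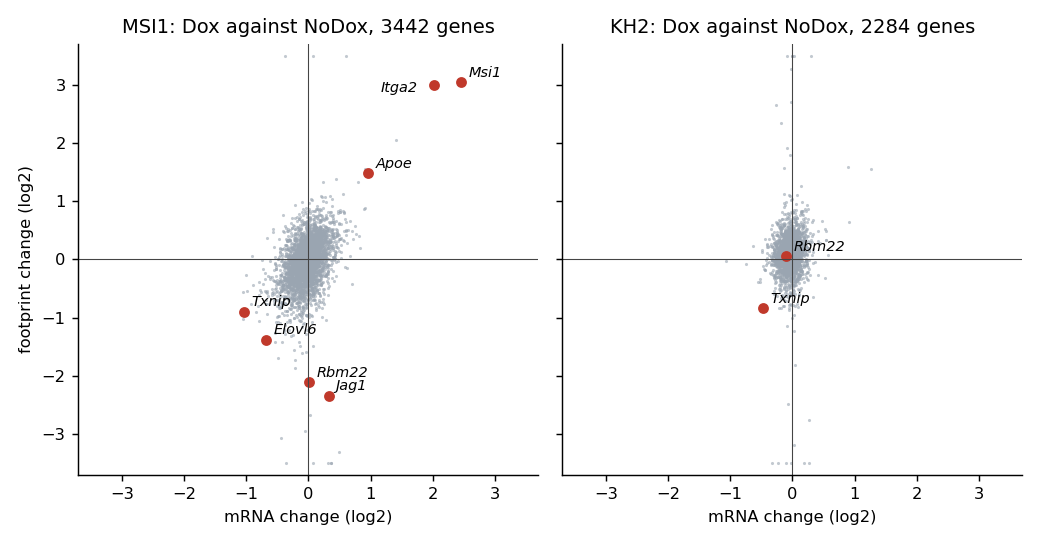
Log2 change with Dox of mRNA (horizontal) and of footprints (vertical) for each gene with at least 100 footprint reads, in MSI1 cells (left, 3442 genes) and KH2 cells (right, 2284 genes), with 8 and 11 genes beyond 3.5 drawn at that limit. Msi1, Itga2 and Apoe lie to the upper right and Txnip and Elovl6 to the lower left in MSI1 cells, while Jag1 and Rbm22 lie below 0 with no matching mRNA change.

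The mRNA calls were also looked up in the MSI1 libraries of E13.5, which share no library with those of E12.5. Of 147 genes higher at E12.5 and measured at E13.5, 128 (87.1%) were higher there, where 61.0% of 9929 genes were, and 50 (34.0%) were higher by at least 1.5-fold, where 5.47% of genes were. Of 130 genes lower at E12.5, 92 (70.8%) were lower at E13.5, where 39.0% of genes were, and 33 (25.4%) by at least 1.5-fold, against 2.09%. The untreated E13.5 library was a pair of technical replicates, which was averaged. KH2 cells had no Dox library at E13.5, so these counts have no background from cells without the added gene. The part of a response to Dox itself was not tested.

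Footprint changes were numerous in both lines. Of 8195 genes, 551 (6.72%) were higher and 426 (5.2%) lower in treated MSI1 cells, and of 8010 genes in KH2 cells 448 (5.59%) and 272 (3.4%) were. Of the 6997 genes measured in all 4 libraries, 199 (2.84%) set treated MSI1 cells apart, against 50 (0.715%) for untreated MSI1, 79 (1.13%) for treated KH2 and 85 (1.21%) for untreated KH2 cells. On the deposited scale the counts in MSI1 cells therefore exceeded those in KH2 cells, by less than in mRNA. When RPKM was rescaled to the reads on genes, which a few genes dominate, the median footprint change became 0.44 in MSI1 and 1.44 in KH2 cells, and 96.3% of the MSI1 calls were then rises, against 56.4%.

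Most of the largest footprint changes were on genes with little or no mRNA. Rasal3, a Ras GTPase-activating protein, had 0, 0, 0 and 368 footprint reads in KH2 NoDox, KH2 Dox, MSI1 NoDox and MSI1 Dox and no mRNA read in any library, at least 411-fold higher against a floor of 3 reads. Mtmr12, a phosphatase relative, had 1, 2, 0 and 111 footprint reads, at least 124-fold higher, with its mRNA at 3.94 to 5.35 RPKM in all 4. Siglecg, a lectin of B cells, went from 16500 reads in untreated MSI1 cells to 0 (at least 1640-fold lower) with none in KH2 cells or in mRNA, and Hrc, a calcium-binding protein of muscle, from 9681 to 4, although its mRNA was at 3.68 to 6.27 RPKM. Uncx, Myoz3, Serpinb6c and Gm3526, all without more than 1 mRNA read in a library where measured, had 290 to 370 footprints in untreated MSI1 cells and 0 with Dox. Wasf3 shows that such runs of reads also came and went in KH2 cells, with 8, 74558, 150122 and 6 footprints. Rises of Wiz, Csn1s2a, a milk casein, and Ubxn8 rested on 47, 56 and 143 reads after Dox.

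Genes of replication-dependent histones fell in footprints in larger number than any other list examined. These mRNAs end in a stem-loop and carry no poly(A) tail, so that few of them were seen in poly(A)-selected RNA (5 passed the mRNA limit). Of 66 measured in footprints, 48 fell in MSI1 cells, where 5.2% of all genes did, and 0 rose. All 66 were below 0, with a median of -0.66, or -0.21 with RPKM rescaled to the reads on genes. In KH2 cells 0 of 66 were called, and the median was 0.01. Their summed footprint level was 43380 RPKM in KH2 NoDox, 43840 in KH2 Dox, 43750 in MSI1 NoDox and 27950 in MSI1 Dox, so that the treated library was low and the other 3 nearly equal. For 33 of the 48 the treated library was apart from each of the others. Histone genes are near-identical copies that can share reads, so the 48 are not separate observations and the value of a single copy is uncertain. Among 8 measured histone variants 0 were called in MSI1 mRNA. In footprints 1 of 9 fell, H2afx (-0.67), where 5.2% of all genes did.

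Mitochondrially encoded mRNAs, which are translated by the organelle's own ribosomes, rose in footprints in both lines. In MSI1 cells 8 of 13 rose and 0 fell (median 0.82), where 6.72% of all genes rose. In KH2 cells 11 of 13 rose (median 1.37), where 5.59% of all genes did. The rises in MSI1 cells were led by mt-Cytb (1.55), mt-Atp8 (1.39) and mt-Nd4l (1.17), where KH2 cells had 1.59, 1.80 and 2.23. Among oligodendrocyte lineage markers, 3 of 10 fell in footprints, where 5.2% of all genes did, Sox10 (-1.01), Cspg4 (-0.76) and Pdgfra (-0.73), and none in mRNA. In 0 of the 3 was the treated MSI1 library apart from all 3 others. For Cspg4, with 1952 and 343 reads, the interval was -0.93 to -0.60 and the change in KH2 cells 0.29. The untreated MSI1 library held the highest footprint level of Pdgfra, 11.3 RPKM, and the other 3 lay between 6.83 and 7.32.

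TE changes were about as numerous in KH2 cells as in MSI1 cells. Of 7049 genes, 458 (6.5%) had a higher and 234 (3.32%) a lower TE in treated MSI1 cells, and in KH2 cells 508 (7.23%) and 219 (3.12%) of 7027 did. The excess of rises in MSI1 cells, 66.2% of the calls, became 55.7% when the median change of all genes was set to 0, and 98.6% when RPKM was rescaled to the reads on genes. Of 6442 genes measured in all 4 library pairs, 106 (1.65%) set treated MSI1 cells apart, 85 of them higher and 21 lower. For untreated MSI1 cells it was 45 (0.699%), for treated KH2 cells 78 (1.21%) and for untreated KH2 cells 137 (2.13%). The 692 TE calls in MSI1 cells stood against 727 in KH2 cells on the deposited scale, and 690 against 636 with both medians set to 0.

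The largest rises of TE in MSI1 cells were in single genes of unrelated function, and most rested on few footprints. Trim27, a ubiquitin ligase of the TRIM family, had 6, 7, 469 and 23032 footprint reads with an mRNA level of 8.49 to 9.31 RPKM throughout, and its TE rose by 7.29 (7.11 to 7.48). Its TE in untreated MSI1 cells was already 4.98 above that of untreated KH2 cells. Parp12, an interferon-induced ADP-ribosyltransferase, had a TE of 0.452, 0.245, 0.230 and 2.14 and rose by 3.22 (2.50 to 3.94), on 26 and 61 reads. Mina, a nucleolar hydroxylase of ribosomal proteins, had 0.244, 0.167, 0.309 and 1.59 and rose by 2.36 (1.62 to 3.11). Msto1, a factor of mitochondrial fusion, had 0.154, 0.218, 0.242 and 0.871 and rose by 1.85. For Parp12, Mina and Msto1 the treated MSI1 value was apart from all 3 others. Their differences from the KH2 response were 4.10 (2.79 to 5.41), 2.91 (1.32 to 4.50) and 1.35 (0.10 to 2.60). These genes were picked for large rises not called in KH2 cells, so the differences are partly set by that choice and are no separate support.

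Ubxn8, an ER protein that tethers the ATPase p97, rose by 5.14 in TE from 9 to 143 footprints, and had too few reads in KH2 cells to compare. Slc29a2, a nucleoside transporter, rose by 1.81, but its footprints had fallen from 30 to 4 reads in KH2 cells and its level after Dox, 2.79 RPKM, was near that of untreated KH2 cells, 2.02. Prpf3, a factor of the U4/U6 small nuclear ribonucleoprotein, rose by 1.79 (0.53 to 3.05) on 9 and 12 footprints, with TE at 0.300, 0.238, 0.124 and 0.427.

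The largest falls of TE were of another kind, because the untreated MSI1 library was the one that stood out. This ranking left out genes also called lower in KH2 cells and genes with fewer than 50 reads in an assay. Tmco1, at -11.05 in MSI1 and -0.66 in KH2 cells, and Hes7, at -6.24 in MSI1 cells, thus lie outside it. Untreated MSI1 cells had a Tmco1 TE of 709, against 0.272 to 0.429 elsewhere. Jag1, Rbm22 and Dhx37, like Kirrel3 and Prpf3, were singled out by the study from these same libraries, so their direction here is no independent evidence. For Jag1 the study has other evidence, which was not examined here. It reports less JAG1 protein on Western blots after Msi1 or Msi2 overexpression and more in cells without both genes. It also reports binding of MSI1 to the Jag1 3′ UTR and a reporter assay of that 3′ UTR. Jag1 had 1.06, 0.853, 4.97 and 0.980 RPKM of footprints in KH2 NoDox, KH2 Dox, MSI1 NoDox and MSI1 Dox, on 42, 36, 511 and 30 reads. Its mRNA was at 1.51, 1.56, 1.07 and 1.35 RPKM, so that TE fell by 2.67 on the log2 scale in MSI1 cells (interval -3.26 to -2.08), or 6.36-fold, and by 2.31 more than in KH2 cells (-3.20 to -1.41). The treated MSI1 cells lay among the KH2 cells. TE of Jag1 in treated MSI1 cells differed from that in untreated KH2 cells by 0.05 (-0.67 to 0.77) and from that in treated KH2 cells by 0.41 (-0.32 to 1.15), and in untreated MSI1 cells it was 2.72 above untreated KH2 cells (2.22 to 3.22).

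Rbm22, a splicing factor of the activated spliceosome, had 55, 61, 666 and 46 footprint reads and a TE of 0.236, 0.263, 1.09 and 0.249, a fall of 2.13 (-2.57 to -1.68). Dhx37, an RNA helicase of ribosome assembly, had 27, 23, 2036 and 13 reads and a TE of 0.414, 0.399, 13.8 and 0.238, a fall of 5.86 (-6.67 to -5.04). The mRNA of Rbm22 lay between 15.9 and 17.5 RPKM and that of Dhx37 between 1.63 and 2.13. As with Jag1, only untreated MSI1 cells differed from the rest in both genes. Within that library Jag1, Rbm22 and Dhx37 ranked at percentiles 98.7, 95.2 and 99.3 of TE. In the other 3 libraries they ranked at 85.4 to 91.8, 35.5 to 40.0 and 32.6 to 78.6. In the 4 Ribo-Seq libraries of the C1 and C4 lines they ranked at 53.5 to 72.5, 66.7 to 71.8 and 28.1 to 44.5. Both lines carry floxed Msi1 and Msi2, and each was profiled at 48 h without and with 4-hydroxytamoxifen (4-OHT). C1 cells lack Cre and C4 cells carry it, so treated C4 cells are the Msi1 and Msi2 knockout. Jag1 ranked at 61.9 there and at 53.5 in untreated C4 cells. For knockout cells the study reports that Jag1 mRNA and footprints rose to a similar degree. Over all genes with a lower TE in treated MSI1 cells and values in all 4 pairs (229), the untreated library was apart from the others in 35 and the treated one in 21.

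**Figure D5:**
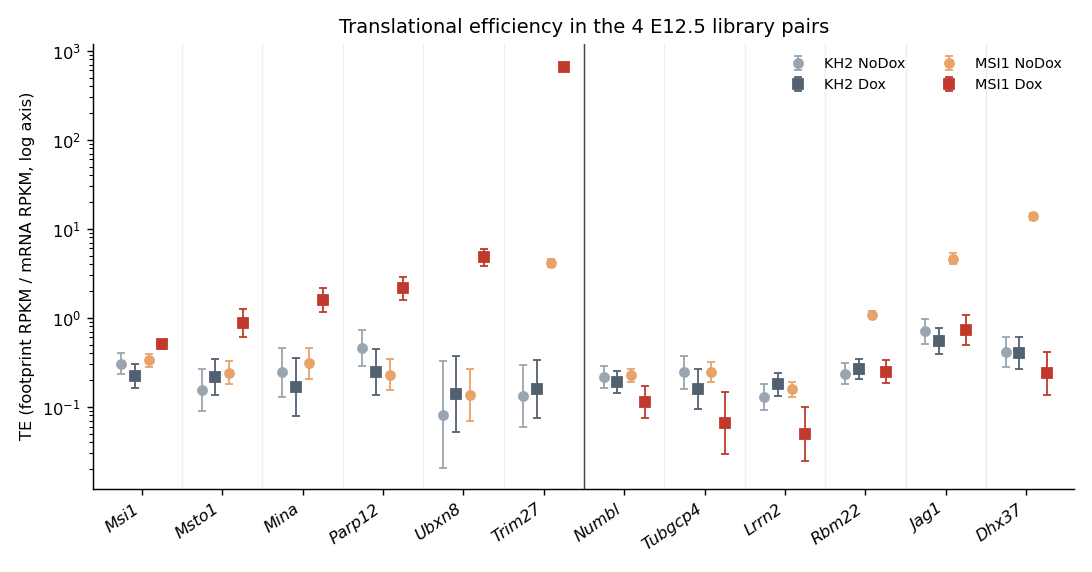
TE (footprint RPKM over mRNA RPKM, log axis) in the 4 E12.5 library pairs for 6 genes with a higher TE (left of the line) and 6 with a lower TE (right) in treated MSI1 cells, with 95% counting intervals from the reads of both assays. Treated MSI1 cells (red squares) are the highest for the genes at the left and the lowest for Numbl, Tubgcp4 and Lrrn2, while for Rbm22, Jag1 and Dhx37 untreated MSI1 cells (orange circles) are alone at the top.

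In other genes the treated library was the low one. Lrrn2, a leucine-rich repeat membrane protein of neurons, had a TE of 0.129, 0.178, 0.156 and 0.0499 and fell by 1.65 (-2.69 to -0.60), on 98 and 8 footprints. Tubgcp4, a subunit of the γ-tubulin ring complex, had 0.244, 0.158, 0.246 and 0.0654 and fell by 1.92 (-3.14 to -0.69), and Slc37a3 fell by 1.87. For Tubgcp4 the difference from treated KH2 cells, -1.27, had an interval that included 0 (-2.65 to 0.10). Numbl, which encodes a relative of the Notch inhibitor Numb, had 0.215, 0.189, 0.225 and 0.113 and fell by 0.99 (-1.64 to -0.35), by 0.81 more than in KH2 cells (-1.68 to 0.06). Nudt17, Rhbdd1 and Acot6 fell by 2.70, 1.81 and 1.79, and in Rhbdd1 and Acot6 it was again untreated MSI1 cells that were apart.

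Of the Notch pathway, 4 of 28 ligands, receptors and regulators fell in footprints, where 5.2% of all genes did, and 0 rose, at a median of -0.21 against 0.11 in KH2 cells. In 0 of the 4 was the treated library apart from all 3 others. They were Jag1, the ubiquitin ligase gene Mib2 that activates ligands (-2.03, on 41 and 3 reads), Numbl (-0.95) and the Deltex gene Dtx4, named after its value was seen (-0.79). In TE 3 of 21 fell, Jag1, Numbl and Dtx4, where 3.32% of all genes did. In the other direction 1 rose, Rbpj, the DNA-binding partner of Notch (0.59), where 6.5% of all genes did. Dtx4 fell by 0.95 in MSI1 TE but rose by 0.89 in KH2 cells. Of 11 Notch targets 3 fell in footprints, where 5.2% of all genes did, Id1 (-1.02), Id3 (-0.64) and Hes7 (-6.31). Hes7 led the untreated KH2 library with 2314436 reads on an mRNA of 0.350 RPKM. Numb itself had 0, 1, 7 and 3 footprint reads, too few for a TE value in all libraries, and an mRNA level of 3.56, 3.56, 3.18 and 3.04 RPKM.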

How the data were processed

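RNA-Seq (paired-end, poly(A)-selected RNA) and Ribo-Seq (single-end, monosome-protected RNA) of cultured mouse neural stem cells were taken from the files as deposited. The submitters' processing notes name Bowtie, TopHat and mm9. The deposited read counts per gene, in the RNA-Seq files and in the Ribo-Seq table, were made by the authors and were not normalized. The authors also deposited RPKM values, which divide those counts by the counted length and by a read number larger than the sum over genes, of which the genes hold 14.9% to 15.6% in RNA-Seq and 7.85% to 32.1% in Ribo-Seq at E12.5. In the annotation used for the 3′ UTRs, 87.2% of the coding exons listed by the files had the same bounds.

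Groups followed the labels (MSI1 or KH2, Dox or NoDox). Log2 ratios of RPKM were formed within each line, 0.5 reads were added where a library held 0, and 95% intervals came from the variance of the log ratio of Poisson counts of 2 libraries (4 for TE). mRNA and footprints needed a mean of at least 1 RPKM and a fold of 1.5 after adding 0.5 RPKM, and TE needed more than 5 reads in every library. Floors were 3 reads. All genes were compared at once, and no p-value was computed with 1 library per condition, whose number of cultures or embryos is not given in the sources used here. Named genes were the 8 largest changes in each direction with at least 50 reads in an assay's libraries that were not called the same way in KH2 cells, the genes singled out by the study, and up to 3 called members per direction of the 42 gene lists. A few genes that met these rules are not reported here. Members and lists were chosen with earlier results of these data known. The E13.5 untreated library was the mean of 2 technical replicates. Counts of genes at E13.5 used ratios after adding 0.5 RPKM, as the design set out, while E13.5 values of single genes are printed with nothing added, on the scale of the E12.5 values beside them, which changes no sign. Alternatives are given in the closing section. The calculations were tested on simulated data. Python 3.11.15, numpy 2.4.6, pandas 2.3.3 and matplotlib 3.10.9 were used.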

Additional observations from a re-analysis of the deposited data

Results flagged for a closer look

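Some genes were called in opposite directions by Dox in MSI1 and in KH2 cells. Among genes that passed the limits in both lines, 3 that were higher and 3 that were lower in MSI1 mRNA had the opposite call in KH2 cells, as had 24 and 28 in footprints and 19 and 23 in TE. Only those that met the rule for named genes are given here. The difference between the lines was not tested, because each condition had 1 library. In mRNA, Gm5089 was at -1.76 on the log2 scale in MSI1 and 0.92 in KH2 cells.

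In TE, the polarity kinase gene Mark2 was at 1.53 in MSI1 and -1.75 in KH2 cells, Egln1, an oxygen-sensing hydroxylase, at 0.97 and -0.64, and the potassium channel gene Kcna2 at 0.75 and -1.25. The other TE values named here had the opposite signs. Cyclin D1, encoded by Ccnd1, was at -0.66 and 0.67, Dtx4 at -0.95 and 0.89, Egln3 at -0.63 and 0.68, the splicing factor gene Srsf1 at -0.93 and 0.63, and Nudt17 at -2.70 and 2.25. The mitochondrial ribosomal protein genes Mrpl24 and Mrps30 were at -0.68 and 0.91 and at -1.05 and 1.49.

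In footprints, Ccnd1 was at -0.91 and 0.83, Mrps30 at -1.30 and 1.22, the secreted chaperone gene Clu at -1.76 and 2.08, Sat1, which acetylates polyamines, at -1.08 and 1.25, Snrnp25 at -1.21 and 2.02, and Spry4, a feedback inhibitor of receptor signalling, at -1.58 and 1.03. Wasf3 was at -12.86 and 13.09, and Kcna2, in the other direction, at 1.23 and -0.93.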

How the results depend on the processing

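The number of calls depended on the limits. With a 2-fold limit, 26 mRNA, 412 footprint and 340 TE changes were called, against 303, 977 and 692, and KH2 cells had 5, 317 and 354. With the fold limit alone there were 1949 footprint and 1574 TE changes. Adding 2 RPKM gave 106 mRNA and 646 footprint changes, and a mean of at least 5 RPKM gave 124 and 364. More than 20 reads in every library gave 357 TE changes, and a 3-fold TE change with mRNA under 1.5-fold gave 88, where KH2 cells had 77. With treated KH2 cells as the control, mRNA changes numbered 571, TE of Jag1 was at 0.41, and footprints of Hrc and Rbm22 were at 0.14 and 0.06, all 3 with the sign turned. Rescaling RPKM to the reads on genes gave 2397 footprint and 2029 TE changes in MSI1 cells and 6370 and 5893 in KH2 cells. With the median change set to 0, the TE rise of Msi1 was 0.55, under the limit. Called against all 3 other libraries, an alternative chosen after the data were seen, there were 111 mRNA, 199 footprint and 106 TE changes. The minima on RPKM and reads tested fewer genes, and for the other settings the cause was not tested. Of the medians over gene lists, 74 moved by more than their interquartile range over the root of the number of genes under the rescaling and 41 did not, and with treated KH2 cells as the control 65 did and 50 did not. The footprint median of matrix genes went from -0.38 to 0.01 and to -0.27, and that of histones from -0.66 to -0.21 and to -0.68. Under the rescaling the footprint median of all genes in MSI1 cells went from -0.01 to 0.44. With 1 library per condition no replicate could be left out. No paired analysis was possible because each condition had 1 library. Depth limited the treated MSI1 library most, with 657288 footprint reads on genes.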

Other observations

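Rps3a, a protein of the small ribosomal subunit, was listed at very different mRNA levels in the 2 lines. Its mRNA was listed at 0.0871 and 0.124 RPKM in KH2 NoDox and KH2 Dox and at 26.6 and 21.6 in MSI1 NoDox and MSI1 Dox, while its footprints were at 28.1, 34.0, 25.4 and 31.5 RPKM. Near-identical copies of this gene can share reads, so the values are uncertain, as is the TE rise called with Dox in MSI1 cells (0.61, 0.35 to 0.88).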
